A study of Mus musculus with 62 samples.

Results

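The genes described here are the 9 liver transcripts of the growth hormone and IGF-1 axis: the growth hormone receptor Ghr, its transcription factors Stat5a and Stat5b, the hormone Igf1, its circulating partner Igfals, and the binding proteins Igfbp1, Igfbp2, Igfbp3 and Igfbp4. They were taken by symbol from a table of 47643 genes, and all 9 were found and passed the filter on low values. Their levels were measured by RNA sequencing in 62 livers of female mice that were 2 months old and bore cachectic melanoma cells (CAC), bore non-cachectic melanoma cells (NCAC), or received a mock injection (Con). Livers were collected 2, 4, 6 and 8 weeks after injection, with 5 animals in each arm and week, except for 7 in CAC at 8 weeks. The strain is C57BL/6J in the sample labels and NCI Ath/nude in the series design, a host without T cells, and this conflict could not be settled. Cachexia is the wasting of body weight in cancer. No genetic modification is listed for any group, and the labels do not name the 2 melanoma lines.

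Growth hormone from the pituitary binds its receptor on hepatocytes and activates the kinase JAK2, which phosphorylates STAT5 proteins. These enter the nucleus and switch on Igf1, Igfals and many sex-biased liver genes. IGF-1 leaves the liver for the blood, where binding proteins hold it. IGFBP3 does so together with the acid-labile subunit encoded by Igfals, while IGFBP1 is a short-term binding protein whose gene is repressed by insulin and induced by fasting and stress. The liver is the main source of circulating IGF-1, and growth hormone resistance of the liver is known from undernutrition and inflammation.

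Expression is given as TPM, a share of the library's transcripts corrected for transcript length, which allows levels of different genes to be set side by side. Differences are on the scale of log2(TPM + 1), with a standard error from limma, and a gene was called at a Benjamini-Hochberg adjusted p under 0.05 over 12160 tested genes. The depth of the libraries is unknown, so no counting error can be attached to a value. Markers of hepatocytes (9 genes measured) summed to between 118453 and 173586 TPM in the Con and CAC livers of 6 and 8 weeks. This sum describes mainly Alb, with means at 8 weeks of 90448 TPM in CAC and 89141 in Con. At 8 weeks 1 of the 9 was called lower in CAC and 0 were called higher. At that week 5 of 10 sinusoidal endothelial markers were higher in CAC, and 5 of 10 Kupffer cell and macrophage markers were lower. All 10 markers of the exocrine pancreas and all 7 of B and plasma cells that were measured were also lower, while of 10 stellate cell markers 1 was higher and 2 were lower. Of 4 cholangiocyte markers 2 were higher and 2 lower, of 2 melanocyte markers 1 was higher, and of 7 skeletal muscle markers 0 were called. The cholangiocyte list summed to 46.3 to 73.2 TPM in CAC against 33.6 to 43.6 in Con, without overlap. Most of this sum was Spp1, with means of 56.5 TPM in CAC and 31.4 in Con. The mean of Sox9 was also higher in CAC, and those of Krt19, Krt7, Epcam and Cldn7 were lower. The sum therefore describes mainly Spp1 and not the list as a whole. The melanocyte list summed to 11.05 to 24.1 TPM in CAC against 7.33 to 13.6 in Con, with 3 of its 5 genes at 0 in every CAC liver. Most of this sum was Dct, with means of 15.5 TPM in CAC and 10.2 in the mock-injected Con livers. It therefore describes mainly Dct and not the list as a whole. At 6 weeks 3 endothelial, 2 cholangiocyte and 1 hepatocyte markers were higher, 2 stellate cell and 2 B and plasma cell markers were lower, and 0 of the other 4 lists' markers were called. At 8 weeks the sums ran from 102.3 to 264 TPM in CAC against 90.4 to 162 in Con for the endothelial list, and from 198 to 731 against 542 to 742 for the macrophage list, with no gene of either list at 0 throughout a group. In bulk tissue, fewer cells of a type and less RNA per cell cannot be told apart. Transcripts of the exocrine pancreas reached at least 100 TPM of Ctrb1 in 9 libraries, of which 3 were Con (1 at 6 and 2 at 8 weeks), 3 NCAC (4 weeks) and 3 CAC (2 at 2 weeks and 1 at 6 weeks). The part of these cell types in the results below was not tested, except that each comparison was repeated without the 9 pancreatic libraries.

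The scale of the values mattered in late cachexia. At 8 weeks the median of all tested genes lay 0.21 lower in CAC than in Con on the log2 scale, and 4291 genes were called lower against 714 higher. After rescaling each library by the median of its gene ratios, the median difference was 0.01, with 1600 genes lower and 1613 higher. At 6 weeks the median was -0.12, and after rescaling -0.02. A member is therefore described below both as deposited and after this rescaling wherever the call differs.

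**Figure D1:**
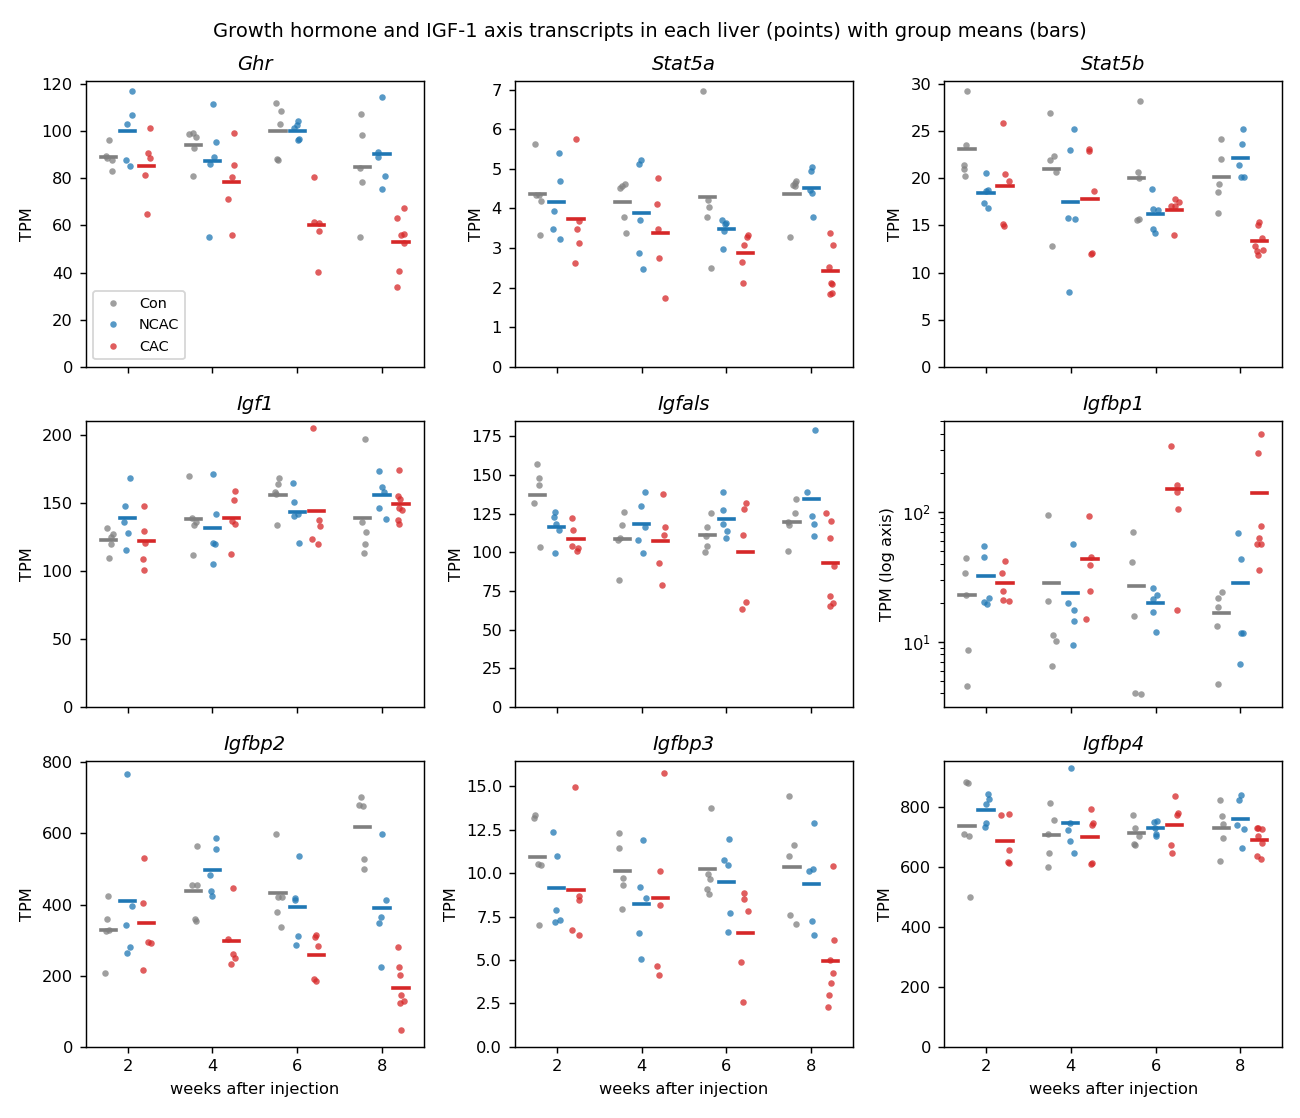
Level of each of the 9 transcripts in every liver (points, TPM) by week after injection and arm, with horizontal bars at the group means. The axis is linear from 0 except for Igfbp1, which is on a log axis. The CAC means of Ghr, Stat5a, Igfbp2 and Igfbp3 are at their lowest at 8 weeks (52.9, 2.41, 165 and 4.97 TPM), and those of Igfbp1 are at their highest at 6 and 8 weeks (149.7 and 138.7 TPM).

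Over all 62 livers Igfbp4 was the most abundant at a median of 729 TPM (range 500.2 to 932), followed by Igfbp2 at 356 TPM (47.5 to 767), Igf1 at 137 TPM (101 to 205), Igfals at 116 TPM (63.0 to 179) and Ghr at 88.1 TPM (33.9 to 117). Igfbp1 had a median of 22.8 TPM but ran from 3.97 to 398, a 100.02-fold range and the widest of the 9 as a ratio of highest to lowest. Stat5b stood at a median of 18.7 TPM, Igfbp3 at 8.77 TPM and Stat5a at 3.69 TPM. The ranges of Igf1, Igfals and Ghr overlap broadly, so these 3 neighbours in the order are not separated by their spread. Neither are Igfbp4 and Igfbp2, Igfbp1 and Stat5b, or Igfbp3 and Stat5a. Spread between livers of one group also set the members apart. The pooled within-group SD of Igfbp1 was 1.16 on the log2 scale, at the 99.0 percentile of all tested genes, against 0.21 for Igf1 and 0.16 for Igfbp4 and a median of 0.23 over all genes.

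As deposited, late CAC livers held less transcript of Ghr, Stat5a, Stat5b, Igfals, Igfbp2 and Igfbp3 and more of Igfbp1, while Igf1 and Igfbp4 were not called. In CAC against Con at 8 weeks 7 of the 9 members were called, 1 higher and 6 lower, where 41.2% of all tested genes were called (5.87% higher and 35.3% lower). The median difference of the 9 was -0.55, against -0.21 for all genes. After median-of-ratios rescaling 6 members were called, 2 higher and 4 lower, with a median of -0.30. On that scale 26.4% of all genes were called (13.3% higher and 13.2% lower). At 6 weeks 2 of 9 were called, Igfbp1 higher and Ghr lower, where 15.3% of genes were called (5% higher and 10.3% lower). At 4 and 2 weeks 0 of 9 were called, where limma called 1.91% and 0.00822% of genes (at 4 weeks 1.3% higher and 0.609% lower), and 0 of 9 had an unadjusted limma p under 0.05 at either week. The exact permutation test gave an unadjusted p under 0.05 for Igfals at 2 weeks (-0.32, p = 0.0397) and for Igfbp2 at 4 weeks (-0.57, p = 0.0317).

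**Figure D2:**
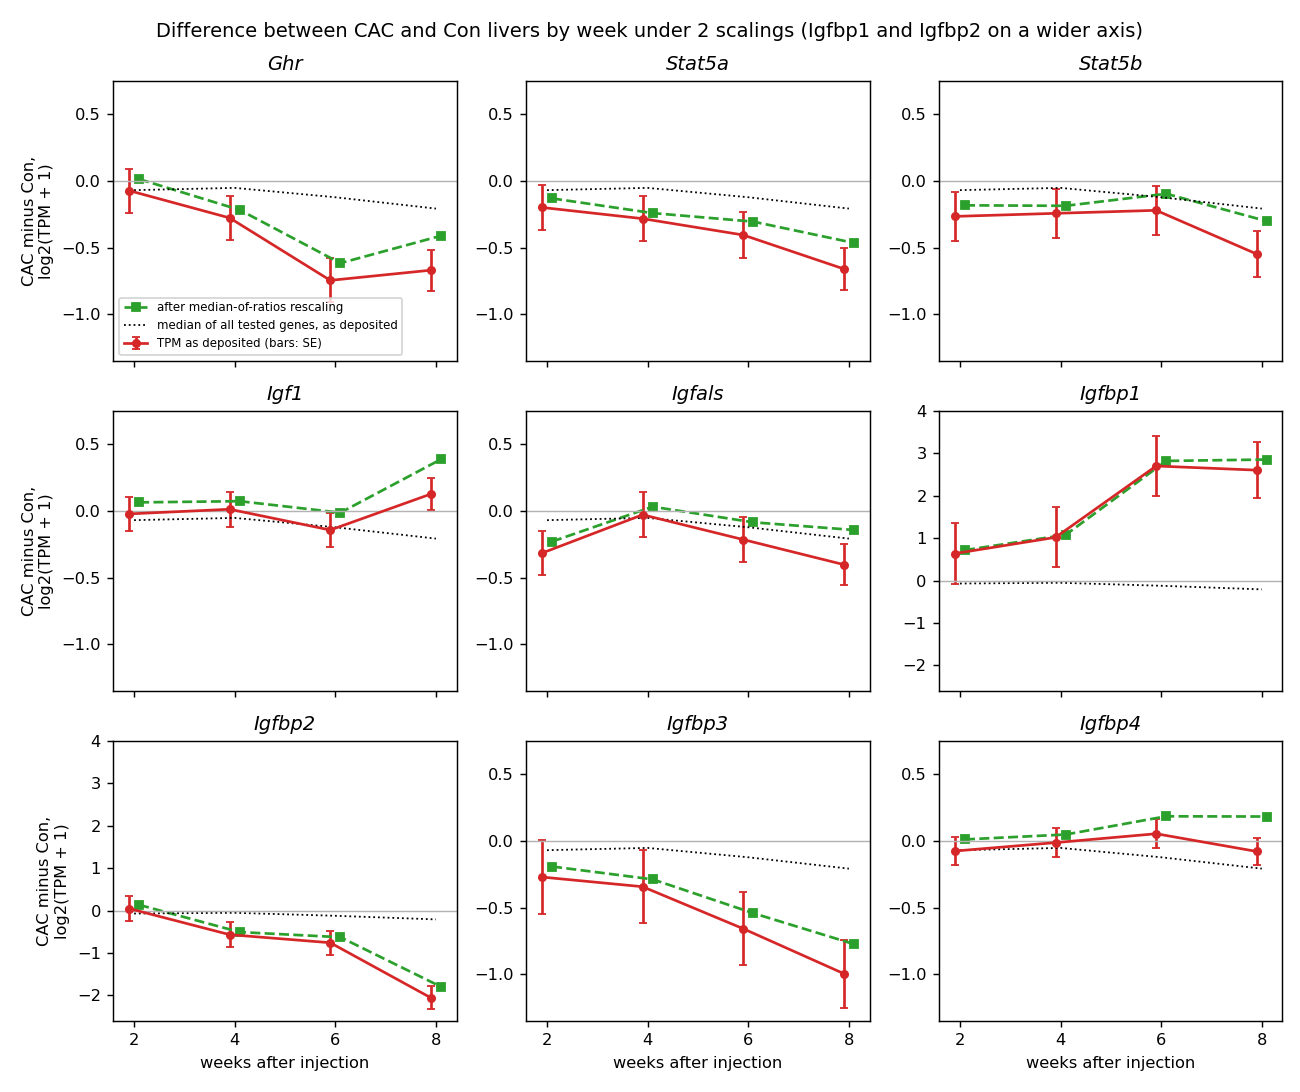
Difference between CAC and Con livers (log2 scale of TPM + 1) by week for each transcript, as deposited with bars of 1 SE, and after median-of-ratios rescaling. The dotted line is the median of all tested genes as deposited, which reaches -0.21 at 8 weeks. At 8 weeks Igf1 lies at 0.13 as deposited and at 0.39 after rescaling, while Igfbp2 lies at -2.06 and -1.80. Igfbp1 and Igfbp2 have a wider vertical axis than the other 7.

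Ghr encodes the growth hormone receptor (chromosome 15, 3317760 to 3583492, minus strand). At 6 weeks its level was 87.8, 88.4, 103, 109 and 112 TPM in the Con livers and 40.4, 57.7, 61.1, 61.6 and 80.5 TPM in the CAC livers. Every CAC liver lay below every Con liver, as was also so for Igfbp2 at that week (groups did not overlap for 13.9% of all genes). Ghr fell by 0.75 ± 0.16 (limma, adjusted p = 0.00104), a 1.66-fold lower mean, and the exact two-sided permutation test gave p = 0.00794, the smallest that 5 against 5 can give. At 8 weeks the Con livers held 55.2, 78.6, 84.2, 98.4 and 107 TPM and the CAC livers between 33.9 and 67.3, with a median of 55.8. The groups then overlapped through 1 Con liver, replicate 2, one of the pancreatic libraries, and 3 of 7 CAC livers lay below all Con livers. Ghr fell by 0.67 ± 0.15 at 8 weeks (adjusted p = 0.000434, exact permutation p = 0.0114). After median-of-ratios rescaling the difference was -0.41 (adjusted p = 0.0127), and under quantile normalization it was -0.33 and no longer called (adjusted p = 0.0688).

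STAT5A and STAT5B are the closely related transcription factors that carry the growth hormone signal to the genome. Their genes are neighbours on chromosome 11 on opposite strands, 8626 bases apart (Stat5b 100780731 to 100850724, Stat5a 100859351 to 100885169), and how reads common to both were assigned is not stated, so the split between them is uncertain. Stat5b stood at 16.4, 18.6, 19.4, 22.01 and 24.2 TPM in Con at 8 weeks and at 11.9 to 15.3 TPM in CAC, with a median of 12.9. The groups did not overlap, as was so for 3 of the 9 members at this week (Igfbp1, Igfbp2 and Stat5b) and for 7.94% of all genes. Stat5b fell by 0.55 ± 0.17 (adjusted p = 0.00895), and the exact permutation p was 0.00126, the smallest that 7 against 5 can give. After rescaling it was -0.30 and not called (adjusted p = 0.112).

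Stat5a was the scarcer of the pair. It stood at 3.27, 4.58, 4.60, 4.65 and 4.69 TPM in Con at 8 weeks and at 1.84 to 3.38 TPM in CAC, with a median of 2.11, and 6 of 7 CAC livers lay below all Con livers. It fell by 0.66 ± 0.16 (adjusted p = 0.000778, exact permutation p = 0.00379), and the fall was still called after rescaling at -0.47 (adjusted p = 0.0103). At 6 weeks neither gene was called, with -0.41 ± 0.17 for Stat5a (adjusted p = 0.0908; 0.0289 without Con replicate 1) and -0.22 ± 0.19 for Stat5b (adjusted p = 0.414).

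Igf1, the hormone made in response to this signal, lies on chromosome 10 (87858265 to 87937042, plus strand). Its level was 113, 119.8, 128, 136 and 197 TPM in Con at 8 weeks and 134 to 174 TPM in CAC, with a median of 146. All 7 CAC livers lay inside the Con range, whose upper end was set by 1 liver, replicate 5. The difference was 0.13 ± 0.12, with a 95% interval of -0.12 to 0.37 (adjusted p = 0.414, exact permutation p = 0.345). Relative to the other genes of the liver the value was higher: after median-of-ratios rescaling it was 0.39 and called (adjusted p = 0.0145), and under quantile normalization 0.47 (adjusted p = 0.00627). With the 20 most abundant genes removed and TPM rescaled, it was -0.04 (adjusted p = 0.794). At 6 weeks Igf1 differed by -0.14 ± 0.13 (adjusted p = 0.455), and at 4 weeks by 0.01 ± 0.13 (adjusted p = 0.987). Group means of Igf1 stayed between 121 and 156 TPM in all 12 groups.

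Igfals encodes the acid-labile subunit, which binds IGF-1 and IGFBP3 in the long-lived complex of blood (chromosome 17, 24865997 to 24882010, plus strand). The Con livers of 8 weeks held 101, 118, 119, 126 and 134 TPM and the CAC livers 64.9 to 125, with a median of 90.9. The groups overlapped, and 4 of 7 CAC livers lay below all Con livers. The fall of 0.40 ± 0.16 was called (adjusted p = 0.0325), yet the exact permutation p was 0.0657, and the value after rescaling was -0.14 (adjusted p = 0.491). The call was also lost when any 1 of 7 of the 12 libraries was left out (Con replicates 2, 3, 4 and 5, and CAC replicates 1, 2 and 6; the highest adjusted p was 0.0988), in a fit within the week alone (adjusted p = 0.0843), and without the pancreatic libraries (adjusted p = 0.0883). At 6 weeks the CAC livers split widely, with 63.0 and 67.6 TPM in 2 and 111, 128 and 132 TPM in 3, against a median of 111 TPM in Con, and the difference was not called (-0.21 ± 0.17, adjusted p = 0.375).

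STAT5 binds palindromes of the form TTCNNNGAA, known as GAS elements. In the 250 bases before each RefSeq start of the 9 genes (15 windows, since 5 genes have more than 1 listed start; GRCm38.p6), this motif, which reads as the same form on the other strand, was found in 2 windows, both of Igfals. It occurs in 7.02% of 32851 such windows of the genome. The stretches around the 2 matches are shown 5′ to 3′ on the plus strand, with the motif in capitals.
Igfals, chr17:24877598-24877626: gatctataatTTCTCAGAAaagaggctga
Igfals, chr17:24878163-24878191: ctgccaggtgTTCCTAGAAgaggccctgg
The first lies 236 to 228 bases before one listed start and the second 58 to 50 bases before another, both within the annotated span of the Igfals gene. A match of letters is no evidence of binding in these livers.

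Igfbp1 encodes the binding protein that insulin represses (chromosome 11, 7197782 to 7202546, plus strand), and it was the single member called higher as deposited. At 8 weeks the Con livers held 4.71, 13.1, 18.6, 21.8 and 24.4 TPM and the CAC livers 35.8 to 398, with a median of 62.4. Every CAC liver lay above every Con liver. CAC was unevenly high: 5 livers stood between 35.8 and 78.0 TPM, and replicates 6 and 1 stood at 285 and 398. Igfbp1 rose by 2.61 ± 0.66 (adjusted p = 0.00136, exact permutation p = 0.00126), and by 2.24 to 2.83 when any 1 library was left out. At 6 weeks the CAC livers held 17.4, 105, 142, 162 and 322 TPM and the Con livers 3.97, 4.02, 15.8, 41.1 and 70.2, so that 4 of 5 CAC livers lay above all Con livers. The rise there was 2.70 ± 0.71 (adjusted p = 0.00655, exact permutation p = 0.0397). The differences of 6 and 8 weeks were not told apart (-0.10 ± 0.97, adjusted p = 0.967). At 4 weeks the difference was 1.02 ± 0.71 and not called (adjusted p = 0.58).

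Igfbp3 is the neighbour of Igfbp1, 3539 bases away on the opposite strand (chromosome 11, 7206086 to 7213923). The pair moved in opposite directions at 8 weeks. The windows of 250 bases before their RefSeq starts are shown as a description only. A search of both strands for CAAAACA, the core of the insulin response element, found it in the Igfbp1 window, 108 to 102 bases before the start (capitals), and not in the Igfbp3 window. It was in 1 of the 15 member windows and in 5.56% of all windows. GTAAACA, the forkhead element, was in 1 member window, of Igfals, and in 3.17% of all windows. The 2 motifs do not overlap in any member window. As for Igfals, a match of letters is no evidence of binding, and its part in the opposite changes was not tested. The Igfbp1 window is given on the plus strand (chr11:7197537-7197786) and the Igfbp3 window on the minus strand (chr11:7213924-7214173), both 5′ to 3′ in GRCm38.p6.
Igfbp1: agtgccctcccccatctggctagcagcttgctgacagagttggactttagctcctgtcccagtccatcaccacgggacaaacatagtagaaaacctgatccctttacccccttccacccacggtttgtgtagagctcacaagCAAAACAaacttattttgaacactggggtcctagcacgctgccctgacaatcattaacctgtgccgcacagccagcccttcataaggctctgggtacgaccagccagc
Igfbp3: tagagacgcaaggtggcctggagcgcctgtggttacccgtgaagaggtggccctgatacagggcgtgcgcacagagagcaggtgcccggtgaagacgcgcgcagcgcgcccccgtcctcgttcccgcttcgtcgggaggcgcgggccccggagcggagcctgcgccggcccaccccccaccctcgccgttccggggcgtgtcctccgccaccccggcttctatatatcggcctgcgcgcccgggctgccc

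IGFBP3 is the main carrier of IGF-1 in blood, and its liver transcript comes largely from non-parenchymal cells. Igfbp3 stood at 7.10, 7.58, 11.01, 11.6 and 14.5 TPM in Con at 8 weeks and at 2.31 to 10.4 TPM in CAC, with a median of 4.24. The overlap came from 1 CAC liver, replicate 3, and the other 6 lay below all Con livers. Igfbp3 fell by 1.00 ± 0.26 (adjusted p = 0.00156, exact permutation p = 0.0114) and by 0.77 after rescaling (adjusted p = 0.0172). The macrophage markers that were lower and the endothelial markers that were higher at this week are given above, and their part in this fall was not tested. At 6 weeks the value was -0.66 ± 0.28 and not called (adjusted p = 0.0889).

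Igfbp2, a binding protein that is abundant in liver (chromosome 1, 72824503 to 72852474, plus strand), fell the furthest of the 9. It stood at 501, 528, 677, 681 and 703 TPM in Con at 8 weeks and at 47.5 to 281 TPM in CAC, with a median of 146. Every CAC liver lay below every Con liver, and the means differed 3.75-fold. The fall was 2.06 ± 0.27 (adjusted p = 3.41e-08, exact permutation p = 0.00126), and 1.80 after rescaling (adjusted p = 8.06e-07). At 6 weeks the groups also did not overlap (185, 192, 284, 309 and 314 TPM in CAC against 337 to 599 in Con; exact permutation p = 0.00794), but the limma difference of -0.76 ± 0.29 was not called (adjusted p = 0.0624). It was called with the replicate number as a block (adjusted p = 0.0258) and in a fit within the week (adjusted p = 0.0151).

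Igfbp2 was also the member whose mock level differed most over the weeks. Con means were 329 ± 77.9 TPM at 2 weeks, 437 ± 86.5 at 4, 432 ± 99.9 at 6 and 618 ± 95.7 at 8 weeks (SD, n = 5 each). Con at 8 weeks did not overlap Con at 2 weeks (501 to 703 against 208 to 423 TPM), a separation that 2.19% of all genes had. The difference of 0.93 ± 0.29 was not called by limma (adjusted p = 0.146), and 0 of 9 members were called in this comparison, against 0.296% of all genes (0.271% higher and 0.0247% lower). CAC means over the same weeks were 348 ± 122, 299 ± 87.1, 257 ± 63.4 and 165 ± 77.1 TPM (SD, n = 5, 5, 5 and 7). The widening gap in means at 8 weeks thus combines a higher mock mean, a difference not called by limma, with a lower CAC mean. Without its 2 pancreatic libraries, Con at 8 weeks had a mean of 570 TPM (n = 3).

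Igfbp4, the most abundant of the binding protein transcripts (chromosome 11, 99041244 to 99054392, plus strand), stayed between 687 and 791 TPM in the means of all 12 groups. At 8 weeks it was 621, 697, 743, 770.3 and 823 TPM in Con and 626 to 729 TPM in CAC, with a median of 705. The groups overlapped, and the difference was -0.08 ± 0.10 with a 95% interval of -0.28 to 0.12 (adjusted p = 0.55). After rescaling it was 0.18 (adjusted p = 0.241), and with the 20 most abundant genes removed it was -0.25 and called (adjusted p = 0.0197).

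In Con at 8 weeks Igfbp4 made up 53.2% ± 3.6 of the summed TPM of the 4 binding protein transcripts, Igfbp2 44.8% ± 3.2, Igfbp1 1.22% ± 0.62 and Igfbp3 0.753% ± 0.199 (SD, n = 5). In CAC at 8 weeks Igfbp4 made up 69.8% ± 7.0, Igfbp2 16.8% ± 7.8, Igfbp1 12.9% ± 11.8 and Igfbp3 0.491% ± 0.242 (SD, n = 7). In NCAC at 8 weeks Igfbp4 made up 64.7% ± 5.9 and Igfbp2 32.1% ± 5.7 (SD, n = 5), and in Con at 2, 4 and 6 weeks the mean Igfbp4 share was 66.6%, 60.1% and 60.6%. The Con livers of 8 weeks thus had the lowest mean Igfbp4 share and the highest mean Igfbp2 share of the 12 groups. The Igfbp1 share ran from 3.70% to 33.0% over the CAC livers and from 0.358% to 1.896% over the Con livers. At 6 weeks Igfbp1 already made up 12.1% ± 7.4 in CAC against 2.26% ± 2.33 in Con, and Igfbp2 22.6% ± 6.7 against 36.3% ± 5.8 (SD, n = 5 each). The summed level at 8 weeks was 1376 ± 149 TPM in Con, 1187 ± 213 in NCAC and 999 ± 126 in CAC. These shares are a description with no test, and a share within a library does not depend on how that library is scaled.

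**Figure D3:**
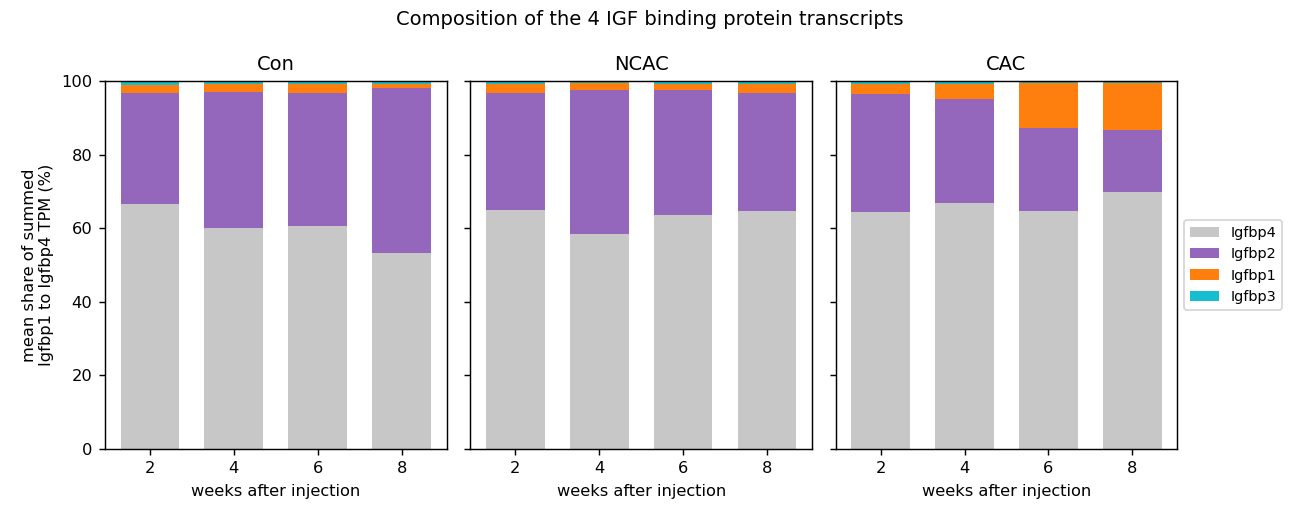
Mean share of each of Igfbp1, Igfbp2, Igfbp3 and Igfbp4 in their summed TPM (%) by week after injection, for Con, NCAC and CAC. The Igfbp1 share of CAC livers is 12.1% at 6 and 12.9% at 8 weeks, and the Igfbp2 share of Con livers is 44.8% at 8 weeks against 16.8% in CAC.

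Livers of mice with the melanoma that does not cause cachexia were compared with the same Con livers, so the comparisons of both tumour arms with Con share their controls. In NCAC against Con 0 of the 9 members were called by limma at 2, 4, 6 or 8 weeks, where 0%, 0%, 0% and 0.181% of all genes were called (at 8 weeks 0.0247% higher and 0.156% lower). At an unadjusted p under 0.05 the count of members was 0, 0, 0 and 1, and that of all genes 1298, 934, 1094 and 1330. The 1 member was Igfbp2 at 8 weeks, at 225, 349, 366, 412 and 599.6 TPM in NCAC, of which 4 lay below all Con livers (-0.72 ± 0.29, adjusted p = 0.352). For Ghr the 95% interval of NCAC minus Con at 8 weeks was -0.22 to 0.44, for Igf1 -0.08 to 0.45, and for Igfbp1 -1.02 to 1.84.

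Set directly against NCAC, CAC livers had 7 of 9 members called at 8 weeks, 1 higher and 6 lower, where 48.2% of all genes were called (5.09% higher and 43.1% lower). Ghr fell by 0.78 ± 0.15 (adjusted p = 5.19e-05), Stat5a by 0.71 ± 0.16 (adjusted p = 0.000312) and Stat5b by 0.69 ± 0.17 (adjusted p = 0.00104), and for these 3 every CAC liver lay below every NCAC liver (15.5% of all genes did not overlap). Igfbp2 fell by 1.34 ± 0.27 (adjusted p = 6.87e-05). Igfals at -0.55 ± 0.16 (adjusted p = 0.00316) and Igfbp3 at -0.87 ± 0.26 (adjusted p = 0.0044) were called as deposited but not after median-of-ratios rescaling (adjusted p = 0.213 and 0.0676). Igfbp1 rose by 2.19 ± 0.66 (adjusted p = 0.00544). Igf1 (-0.06 ± 0.12) and Igfbp4 (-0.13 ± 0.10) were not called. At 2 and 4 weeks 0 of 9 were called by limma, where 0% and 1.27% of genes were (at 4 weeks 1.11% higher and 0.156% lower), with 0 and 1 members at an unadjusted p under 0.05. At 6 weeks 2 of 9 members were called, where 12.1% of genes were (6.55% higher and 5.54% lower). Ghr fell by 0.76 ± 0.16 (adjusted p = 0.000778) with no overlap between the groups, which 11.8% of all genes showed. Igfbp1 rose by 2.42 ± 0.71 (adjusted p = 0.0159), a call lost without CAC replicate 1 (adjusted p = 0.0536) or replicate 2 (adjusted p = 0.0684).

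**Figure D4:**
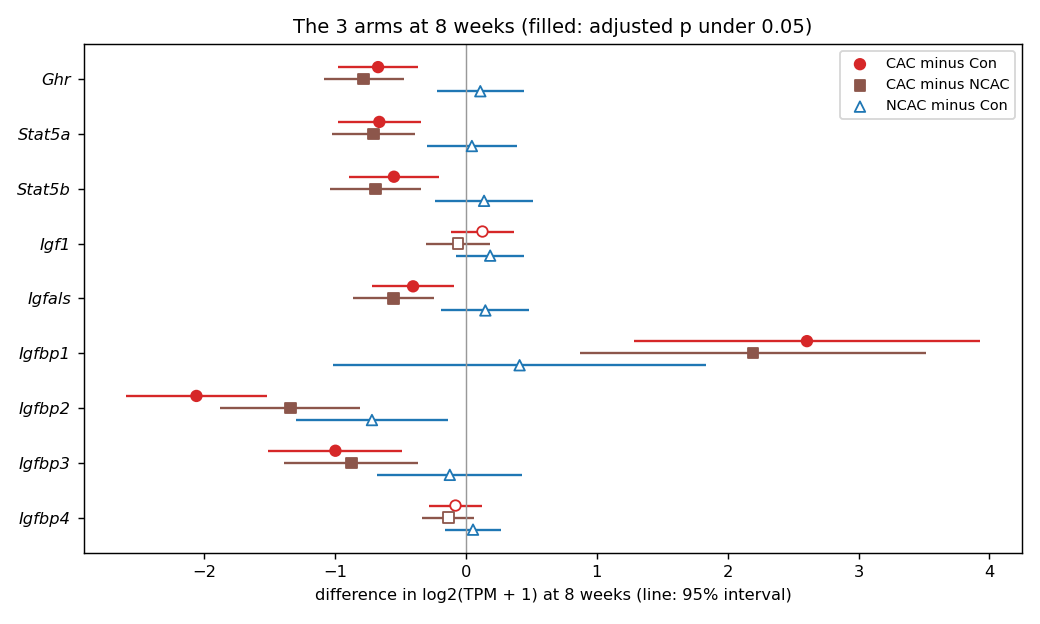
Differences between the 3 arms at 8 weeks for each transcript (log2 scale of TPM + 1), with lines for the 95% interval and filled symbols where the adjusted p is under 0.05. The intervals of CAC minus Con and CAC minus NCAC exclude 0 for 7 of 9 transcripts, and for NCAC minus Con no symbol is filled.

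Whether the gap between CAC and Con changed with time was tested as a linear trend of the weekly differences, per step of 2 weeks. The trend was called for 2 of 9 members, where 15.7% of all genes were called (3.35% higher and 12.3% lower). For Igfbp2 it was -0.65 ± 0.12 (adjusted p = 0.00026), and for Ghr -0.23 ± 0.07 (adjusted p = 0.0227). The Ghr trend was not called after median-of-ratios rescaling (-0.17, adjusted p = 0.0588). Igfbp1 had a trend of 0.76 ± 0.31 that missed the threshold (adjusted p = 0.0829), though it was called without Con replicate 2 of 2 weeks (adjusted p = 0.0447) or CAC replicate 3 of 6 weeks (adjusted p = 0.046). Igfbp3 had one of -0.25 ± 0.12 (adjusted p = 0.153; 0.0487 without CAC replicate 3 of 8 weeks). Between 6 and 8 weeks the gap changed for 0 of 9 members and for 0 of 12160 genes by limma (2189 genes at an unadjusted p under 0.05). The largest value was that of Igfbp2 (-1.30 ± 0.39, adjusted p = 0.112; 0.0214 without CAC replicate 3 of 8 weeks). The trend of NCAC minus Con was called for 0 of 9 members and 0% of genes by limma (1241 genes at an unadjusted p under 0.05).

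Livers of one CAC group differed in their levels of the axis transcripts. In the CAC livers of 8 weeks the highest Igfbp1 levels, 398 TPM in replicate 1 and 285 TPM in replicate 6, came with the lowest Ghr levels, 33.9 and 40.5 TPM, and the lowest of Stat5a was also in replicate 1 (1.84 TPM). Replicates 1 and 6 also had the lowest Igfals levels (64.9 and 67.5 TPM), but their Igf1 levels, 152.5 and 174 TPM, were the third highest and the highest of the group. Replicate 3 had the highest Ghr (67.3 TPM), Stat5a (3.38 TPM), Stat5b (15.3 TPM), Igfbp2 (281 TPM) and Igfbp3 (10.4 TPM) of its group. Its Igfbp1 level, however, was the group median (62.4 TPM), and its Igfals level (120.4 TPM) lay below that of replicate 7 (125.4 TPM). The livers therefore did not follow 1 order over all members. The same pair of livers, replicates 1 and 6, had the highest Ddit4 (92.3 and 99.5 TPM), Cdkn1a (39.7 and 38.2 TPM) and Tat (3643 and 3103 TPM). At 6 weeks the liver with the lowest Ghr (replicate 1, 40.4 TPM) had the lowest Igfals (63.0 TPM) and Stat5b (14.0 TPM) and the second highest Igfbp1 (162 TPM), and is one of the pancreatic libraries. These livers were singled out after their values were seen, and no test was made.

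Other proteins of the receptor complex were followed through a fixed list of 13 genes, of which 12 passed the filter. In CAC against Con at 8 weeks 2 were higher and 4 lower, against 5.87% and 35.3% of all genes, with a list median of -0.12 against -0.21 for all genes. The lower share is near that of all genes. After rescaling 3 were higher and 1 lower, against 13.3% and 13.2% of all genes. Socs3, which inhibits cytokine receptor signalling and is induced by STAT3, rose from 6.51 to 44.5 TPM (2.61 ± 0.27, adjusted p = 5.54e-11), and had already risen at 4 weeks (2.46, adjusted p = 5.55e-08). Stat3, which carries interleukin-6 signals, rose by 0.85 ± 0.13 (adjusted p = 6.08e-07). Ptpn6, a phosphatase abundant in blood cells, fell by 0.77 ± 0.13 (adjusted p = 9.4e-06), at a week when macrophage and B cell markers were lower, whose part was not tested. The prolactin receptor gene Prlr fell by 0.60 ± 0.18 (adjusted p = 0.00508; 0.0882 after rescaling). Socs2 and Cish, inhibitors that STAT5 induces, were not called. Socs2 differed by 0.03 ± 0.37 (adjusted p = 0.965) and Cish by 0.41 ± 0.50 (adjusted p = 0.529). The kinase gene Jak2 differed by -0.06 ± 0.11 (adjusted p = 0.723).

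Of 17 genes for other IGF and insulin ligands, receptors, substrates and modifiers of binding proteins, 10 passed the filter. Igf1r, the IGF-1 receptor gene, stayed at or under 0.786 TPM in every liver and Igf2 at or under 0.857 TPM, and neither was tested. In CAC at 8 weeks 0 of the 10 were higher and 3 lower (list median -0.46), where 5.87% and 35.3% of all genes were, so the lower share is near that of all genes. After rescaling 2 were higher and 2 lower, against 13.3% and 13.2% of all genes. Irs1, an adaptor of the insulin and IGF-1 receptors, fell by 0.80 ± 0.20 (adjusted p = 0.00116). Grb14, an inhibitor of the insulin receptor, fell by 0.51 ± 0.13 (adjusted p = 0.00179; 0.073 after rescaling). Htra1, a secreted protease that cleaves binding proteins, fell by 0.87 ± 0.24 (adjusted p = 0.00293), but by 0.57 without Con replicate 2, and its value without the pancreatic libraries was -0.36 (adjusted p = 0.242). Igfbp6 differed by -1.02 ± 0.47 (adjusted p = 0.0724) and by -0.11 without those libraries, though leaving out Con replicate 1, 3 or 5 or CAC replicate 7 brought it under the threshold (lowest adjusted p = 0.0392). Insr, the insulin receptor gene, differed by 0.20 ± 0.18 (adjusted p = 0.38; 0.46 and adjusted p = 0.0248 after rescaling), Irs2 by -0.41 ± 0.29 (adjusted p = 0.267) and Igf2r by -0.29 ± 0.15 (adjusted p = 0.105; 0.0164 without Con replicate 2).

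Growth hormone shapes the sex bias of the liver through STAT5B, and lists of such targets outside the major urinary protein cluster were followed in these female mice. Of 14 male-biased genes 12 passed the filter. In CAC at 8 weeks 2 were higher and 7 lower, against 5.87% and 35.3% of all genes, with a list median of -1.16. After rescaling 2 were higher and 6 lower, against 13.3% and 13.2% of all genes. Slco1a1, a carrier that takes organic anions into hepatocytes, stood at 9.89 to 63.4 TPM in Con and at 0.00968 to 0.449 TPM in CAC, with no overlap (-4.59 ± 0.77, adjusted p = 6.11e-06). It varied widely in other groups, from 0.279 to 60.5 TPM in Con at 6 weeks and from 0.964 to 56.5 TPM in NCAC at 8 weeks. The lowest of those Con livers thus lay inside the CAC range of 8 weeks. Cyp7b1, an oxysterol hydroxylase, fell by 1.63 ± 0.26 (adjusted p = 1.77e-06) and Nudt7, a peroxisomal CoA hydrolase, by 1.67 ± 0.28 (adjusted p = 5.43e-06). C8a, a complement component, rose by 1.22 ± 0.19 (adjusted p = 1.32e-06).

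All 16 genes of the female-biased list passed the filter, and in CAC at 8 weeks 2 were higher and 7 lower, with a list median of -0.96. As deposited, the lower share is near the 35.3% of all genes. After rescaling 3 were higher and 7 lower, where 13.3% of all genes were higher and 13.2% lower. Hao2, a peroxisomal oxidase of hydroxy acids, stood at 37.1, 52.6, 69.7, 81.6 and 113 TPM in Con and at 0.248 to 20.4 TPM in CAC, a fall of 4.76 ± 0.42 (adjusted p = 6.72e-13). Cyp2b13 fell by 3.02 ± 0.43 (adjusted p = 2.86e-07), Cyp4a14 by 3.00 ± 0.53 (adjusted p = 1.23e-05) and Cyp2b9 by 1.84 ± 0.26 (adjusted p = 1.74e-07). These are cytochrome P450 genes with near-identical relatives that can share reads. At 6 weeks 4 of the 12 male-biased and 6 of the 16 female-biased genes were lower and 1 and 0 were higher, where 10.3% of all genes were lower and 5% higher.

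Genes that insulin represses or fasting induces were followed beside Igfbp1. Of 17 listed, 16 passed the filter. In CAC at 8 weeks 6 were higher and 1 lower, against 5.87% and 35.3% of all genes, with a list median of -0.06. After rescaling 7 were higher and 0 lower, against 13.3% and 13.2% of all genes. Ddit4, an inhibitor of mTORC1, stood at 2.83 to 5.87 TPM in Con and at 3.88 to 99.5 TPM in CAC (2.20 ± 0.45, adjusted p = 0.000125). Cdkn1a, a cell cycle inhibitor, rose by 2.17 ± 0.60 (adjusted p = 0.00343) and Tat, which degrades tyrosine, by 1.48 ± 0.30 (adjusted p = 8.48e-05). Tat ran from 361 to 1541 TPM in Con and from 1277 to 3643 TPM in CAC at 8 weeks. In Con at 6 weeks it ran from 894 to 2154 TPM, so the mock level also differed between weeks. Txnip, which glucose induces, fell by 1.02 ± 0.31 (adjusted p = 0.00666; 0.0608 after rescaling). At 6 weeks 1 of the 16 was higher and 0 lower, against 5% and 10.3% of all genes.

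**Figure D5:**
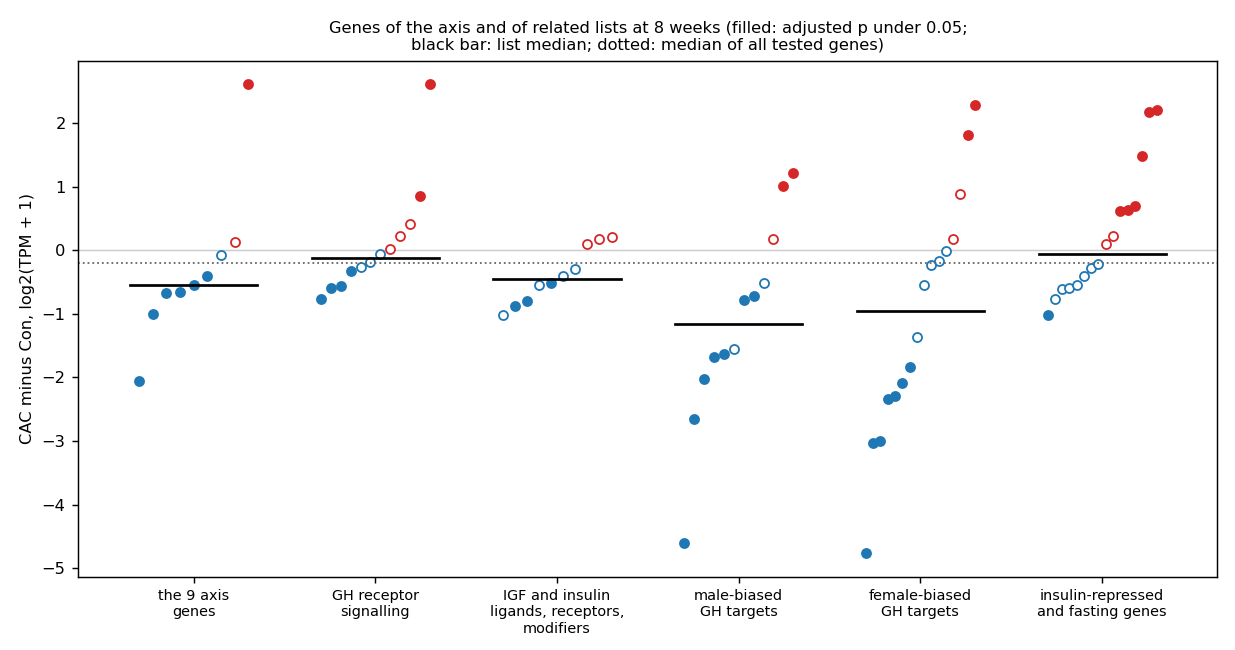
Difference between CAC and Con at 8 weeks (log2 scale of TPM + 1) for the 9 axis genes and for each tested gene of the related lists, one point per gene, filled where the adjusted p is under 0.05. Black bars are list medians, which are -1.16 and -0.96 for the male-biased and female-biased targets, and the dotted line is the median of all tested genes at -0.21.

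The genes whose level followed each member most closely were sought by Pearson correlation of the 12 group means of log2(TPM + 1), over 7806 candidates (7807 for Stat5a), as a description of means that share the same livers and weeks. Ghr was followed by Akr1c14 (r = 0.99), Galm (r = 0.98) and Cyp4v3 (r = 0.98). Igfbp1 was followed by Cebpd (r = 0.98), Hrg (r = 0.97) and Lect1 (r = 0.96), and Igfbp2 by Abhd1 (r = 0.94), Nt5dc2 (r = 0.93) and Ccnd1 (r = 0.93). Igfbp3 was followed by Itm2b, Gclc and Enox2 (r = 0.97 to 0.98), Stat5a by Exoc3, Afg3l1 and Aktip (r = 0.97 to 0.98) and Stat5b by Thtpa and Sgpl1 (r = 0.95 to 0.97). Igfals was followed by Fzd8, Oaf and Tmem63b (r = 0.96). Igf1 was followed by Mier3, Rybp and Smad5 (r = 0.90 to 0.91) and Igfbp4 by Nudt19, Ubac1 and Hsd3b1 (r = 0.86 to 0.87). Neither Igf1 nor Igfbp4 was called in CAC at 8 weeks. Group means that vary little hold less change to follow, so their lower r is not a separate result.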

How the data were processed

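Liver RNA was measured in 62 libraries, called biological replicates and made with a stranded TruSeq mRNA kit, per the labels' protocols. Each was taken as 1 animal. The extraction protocol also mentions a lung carcinoma line that no group includes. The authors deposited 1 table of TPM for 47643 symbols, in which each library sums to 1000000 (0 unmapped columns). The genome was mm10, per the submitters' processing notes, while aligner, quantifier and read numbers were not given in the sources used here. Positions come from GENCODE on the same assembly (GRCm38) and promoter windows from RefSeq.

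From the TPM, log2(TPM + 1) entered limma 3.58.1 (R 4.3.3) with 12 group means over all libraries and a mean-variance trend. The filter kept 12160 genes that reached 1 TPM in 5 or more libraries. There were 16 comparisons, with Benjamini-Hochberg adjustment over all genes in each. The trend weights were -3, -1, 1 and 3. The limma fit was tested on simulated data. Each member also had an exact two-sided permutation test of CAC against Con at each week, 36 in all, given unadjusted. Median-of-ratios rescaling divides each library by its median ratio to the gene-wise geometric mean. No count model was used, since depth is unknown. Figures were drawn with matplotlib 3.10.9.

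The members and gene lists were chosen with earlier results of these data known. Besides the 9 members, the text names up to 4 genes of each list with the smallest adjusted p at 8 weeks, the genes Socs2, Cish, Jak2, Igf1r, Insr, Igf2r and Irs2, and the 3 genes most like each member among tested genes, not predicted or clone names, whose mean reached 5 TPM in a group. One gene that this rule names is not reported here. Alternatives were other pseudocounts, filters, scalings, fits and sets of libraries. Protein sequences were not used here.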

Additional observations from a re-analysis of the deposited data

Results flagged for a closer look

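In 4 of 108 group values tested for a lone library, 1 liver stood further from the rest of its group than Dixon's 95% limit, where chance flags about 1 in 20. Igf1 was at 205 TPM in CAC replicate 5 of 6 weeks, against 119 to 137 in the other 4. Igfbp3 was at 13.8 TPM in Con replicate 4 of 6 weeks, against 8.83 to 9.96 in the others. That library held 174 TPM of the pancreatic Ctrb1. Stat5a was at 3.27 TPM in Con replicate 5 of 8 weeks, against 4.58 to 4.69. Stat5b was at 14.0 TPM in CAC replicate 1 of 6 weeks, against 17.1 to 17.8, in a library with 146 TPM of Ctrb1.

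For 2 members the gap between CAC and Con differed between time points by the test of the trend, which was -0.65 per 2 weeks for Igfbp2 and -0.23 for Ghr.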

How the results depend on the processing

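Each alternative was compared with the values as deposited. No member's difference that was called in either of the 2 had the opposite sign in the other. Between alternatives the sign could differ, as given above for Igf1 and Igfbp4 in CAC against Con at 8 weeks. The count of members called in CAC against Con at 6 weeks was 2, and 5 with the 20 highest genes removed. In CAC against NCAC at 6 weeks it was 2, and 4 with the 20 highest genes removed and 1 without the libraries with at least 100 TPM of Ctrb1. For the trend of CAC minus Con it was 2, and 1 after median-of-ratios rescaling, 1 under quantile normalization. Removal of the 20 highest genes made it 4 for the trend. Leaving out 1 library gave 2 to 3 members for CAC against Con at 6 weeks, 6 to 7 at 8 weeks, 1 to 2 for CAC against NCAC at 6 weeks, 7 to 7 at 8 weeks, 2 to 3 for the trend, 0 to 1 for the change from 6 to 8 weeks, and 0 to 0 for the other comparisons. Of the 36 exact permutation tests, 6 had a p under 0.05 when adjusted over these 36, a family of members chosen with results known. The number was 2 after median-of-ratios rescaling, 3 under quantile normalization, 10 with the 20 highest genes removed, 0 without the Ctrb1 libraries and 0 to 9 when 1 library was left out. Fewer samples raise the smallest p these tests can give. Numbers within groups did not pair the livers: deviations of same-numbered libraries had a mean correlation of 0.0011, and 4 of 20 pairs of CAC and Con exceeded 0.1. With the replicate number as a block, 7 members were called at 8 weeks and 3 at 6 weeks. Over all genes, 5005 were called in CAC against Con at 8 weeks and 3213 after median-of-ratios rescaling. A filter at a mean of 5 TPM left Stat5a untested. The depth of the libraries is unknown, so the precision of low values such as those of Stat5a cannot be given.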
